A study of Homo sapiens with 9 samples.

Results

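The genes described here are long noncoding RNA genes that carry a LINC name, that is, a symbol made of LINC and a number. They were taken from the deposited table of CPM (a gene's reads after each library was brought to 1 common total) by that symbol and by a mean of at least 1 CPM over the 9 libraries. Of 25084 genes in the table, 450 had such a symbol, and 111 of these were chosen by their mean CPM. The other 339 had a mean below 1 CPM. The 3 genes just inside the limit were LINC00674 at 1.03 CPM, LINC00472 at 1.01 CPM and LINC01011 at 1.00 CPM, and the 3 just outside were LINC02846 at 0.995, LINC01088 at 0.968 and LINC00653 at 0.934 CPM. The rule used the mean over all 9 libraries, so a gene near the limit could pass through the group in which it was high. This bears on 11 of the 111 genes, which had a mean below 1 CPM in at least 1 group (8 of them in siCTR). Where such a gene is named below, its difference is given as a description with no p.

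LINC symbols are given to RNA genes that mostly lie between protein-coding genes and have no recognised protein product. They share a naming rule and not a sequence or a function: most are transcribed by RNA polymerase II, capped, spliced and polyadenylated, and many are present at few copies in few cell types. Some act on a neighbouring gene on the same chromosome, some act elsewhere in the cell, some are the precursors of microRNAs or circular RNAs, and for many no role is known. Their number and tissue restriction make them of interest in neuroblastoma, a childhood tumour of the sympathetic nerve lineage.

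The libraries came from LAN5, an established human neuroblastoma line with extra copies of MYCN. Small interfering RNAs (siRNAs, which direct the breakdown of a matching transcript) were brought in by nucleofection, and total RNA was taken after 72 h of culture. The 3 groups had 3 libraries each: siCTR received a control siRNA, siMYCN received the siRNA labelled siMYCN_2 and siHAND2 received the siRNA labelled siHAND2_3. All 9 libraries share the cell line and the electroporation, and each target is represented by 1 siRNA, so an effect of the target and one of that siRNA's sequence cannot be told apart. Both targets encode basic helix-loop-helix transcription factors. MYCN, with its partner MAX, binds the DNA letters CACGTG, and HAND2, with E-protein partners, is known for the form CATCTG. Nothing in the labels says that the libraries of a group came from separate cultures, so p-values measure the spread between these libraries, which may be technical.

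The steps between low values put an estimated 21.1 M to 32.7 M assigned reads behind each library. On that estimate 1 CPM stood for 21.1 to 32.7 reads, and counting error alone gave a coefficient of variation (CV, the SD over the mean) of 17.5% to 21.8%. Only 79.6% to 81.0% of low values were whole multiples of the step, so these figures are approximate. Each siRNA went with less of its own target: the siMYCN mean of MYCN was 70.0% and the siHAND2 mean of HAND2 was 54.2% of the siCTR mean. MYCN was also at 49.6% in siHAND2, below its level in siMYCN, and HAND2 was at 113.9% in siMYCN. Of 8 marker genes of noradrenergic neuroblastoma, 8 reached 1 CPM, whereas no marker of Schwann, immune or endothelial cells did. The summed level of the neuroblastoma markers was 2064 to 2205 CPM with siCTR, 2616 to 2708 with siMYCN and 2157 to 2271 with siHAND2, so siMYCN stood apart. That of the Schwann markers stayed near 2 CPM, at 1.80 to 2.08, 2.37 to 2.69 and 2.20 to 2.30, also without overlap. Of 4 epithelial markers 1 reached 1 CPM, with a summed level of 2.83 to 3.99 CPM over all libraries. Only 2 of these 4, and 2 of 4 immune markers, were in the deposited table, so the others have no value here. Of 8 mesenchymal markers 7 reached 1 CPM, and their summed level was 257 to 267 CPM with siCTR, 313 to 342 with siMYCN and 444 to 508 with siHAND2. The groups did not overlap in the mesenchymal sum, and the part of these marker shifts in the results below was not tested. In bulk RNA, fewer cells of a type and less RNA per cell cannot be told apart.

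The LINC genes were mostly low. Their median level was 3.34 CPM and the highest 89.0 CPM. By mean level 38 lay between 1 and 2 CPM, 30 between 2 and 5, 25 between 5 and 20, and 18 at 20 CPM or more. The 10 highest held 51.2% of the summed LINC signal. The 111 genes lay on 22 chromosomes, and all 111 were found in the RefSeq gene table, 110 as long noncoding RNA. The exception, LINC00672, is listed there as protein-coding. Current names were different for 11 of them, and several of these names state a function or a place: LINC01578 is now CHASERR, and LINC00599 is now MIR124-1HG, the host of a microRNA abundant in neurons.

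The summed CPM of the 111 genes was 1166, 1185 and 1208 in siCTR libraries 1, 2 and 3. In siMYCN it was 1257, 1295 and 1323, and in siHAND2 1213, 1266 and 1310. Every knockdown library lay above every siCTR library. The means (± SD, n = 3 libraries) were 1186 ± 20.97 CPM with siCTR, 1292 ± 32.8 with siMYCN and 1263 ± 48.4 with siHAND2, and siMYCN and siHAND2 overlapped.

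The 10 LINC genes with the highest mean CPM were LINC00682, LINC01578, LINC02268, LINC00667, LINC01694, LINC00662, LINC02210, LINC00839, LINC02840 and LINC00205. Levels of different genes were compared per kilobase of exon, with all annotated exons of a gene joined, which lowers the value of genes with many long isoforms. On this scale the median of 109 genes with a length was 0.841 CPM per kb. LINC00682 had 27.7 CPM per kb and LINC02268 16.6, against 11.7 for LINC01578 and 1.96 for LINC00662. LINC02495, chosen here after its value was seen, had the highest, 30.2 CPM per kb, on an annotated exon length of only 242 bp.

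LINC00682 (chr4:41872747-41882955, GRCh38) measured 87.4, 90.5 and 88.4 CPM with siCTR, 86.2, 95.8 and 87.5 with siMYCN and 82.3, 85.9 and 96.7 with siHAND2. The 3 groups overlapped, and its log2 fold change was 0.02 (adjusted p = 0.859) in siMYCN and -0.01 (adjusted p = 0.909) in siHAND2. These p-values, and all that follow, come from a linear model fitted to all 14495 tested genes with limma, two-sided, with Benjamini-Hochberg adjustment over those genes. Fold changes are on the log2(CPM + 1) scale, which understates the change of low genes. LINC02268, LINC02210 and LINC00662 also passed the threshold of an adjusted p of 0.05 in neither knockdown, with log2 fold changes between -0.04 and 0.13. At these levels replicates were close: the median CV within a group was 3.95% to 4.94% for the 18 genes at 20 CPM or more. It was 16.3% to 18.9% for the 38 genes between 1 and 2 CPM, near the estimated counting error at 1 CPM.

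**Figure D1:**
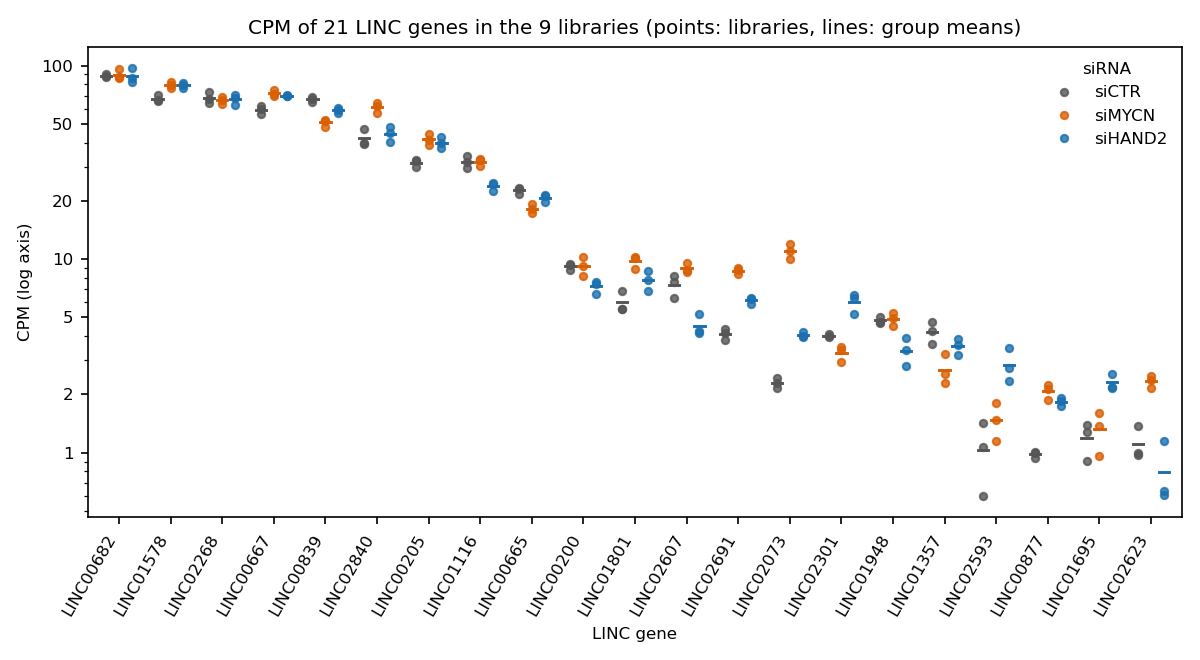
CPM (log axis) of 21 LINC genes in the 9 libraries; each point is a library, coloured by siRNA, and each short line is a group mean. LINC02073 rises from 2.29 ± 0.12 CPM in siCTR to 11.02 ± 0.98 CPM in siMYCN (SD, n = 3 libraries), while LINC00682, at the top of the range, overlaps between the groups.

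Comparing siMYCN with siCTR asks which of these RNAs change when MYCN is lowered. Of the 111 LINC genes, 19 rose and 3 fell, and 89 did not pass the test. Over all 14495 genes tested, 24.5% were called higher, 11.4% lower and 35.9% in either direction, against 19.8% in either direction for the LINC genes. The median log2 fold change was 0.08 for the LINC genes and 0.06 for all genes. All 3 libraries lay above siCTR in 33 LINC genes and below it in 8, against 33.4% and 16.1% of all genes, or 49.5% in either direction. The excess of rises over all genes depended on the scaling of the libraries: after median-ratio rescaling 16.1% of all genes were called higher and 16.3% lower, and after quantile normalization 16.1% and 16.5%. The LINC genes then had 14 rises and 4 falls, and 13 and 4, with medians of 0.03 and 0.02, so fewer rises were called but rises still outnumbered falls. Among the 100 LINC genes whose mean reached 1 CPM in each group there were 17 rises and 3 falls. The changes were small: 7 of the 111 had an absolute log2 fold change of 0.5 or more and 1 reached 1. Without siMYCN replicate 3 the number of rises was 12, and the 3 falls were still called.

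LINC02073 (chr17:51336646-51521401) measured 2.29, 2.17 and 2.42 CPM with siCTR, 10.1, 10.97 and 12.03 CPM with siMYCN and 3.95, 4.18 and 4.00 CPM with siHAND2. Its lowest siMYCN library was thus above its highest library of the other groups, and the siHAND2 libraries stood between siCTR and siMYCN without touching either. The ratio of the means was 4.80 in siMYCN, with a log2 fold change of 1.86 (standard error 0.09, adjusted p = 2.44e-09). No other of the 14495 genes rose by more in that comparison. Its nearest protein-coding gene, UTP18, went the other way in siMYCN and fell by 0.30 (adjusted p = 2.79e-04).

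LINC02691 (chr14:104223584-104288069) measured 3.82, 4.16 and 4.37 CPM with siCTR, 8.42, 8.97 and 8.81 with siMYCN and 6.25, 6.33 and 5.85 with siHAND2. The 3 groups did not overlap, with siMYCN highest and siHAND2 in the middle. The log2 fold change in siMYCN was 0.93 (standard error 0.08, adjusted p = 5.13e-07). The nearest protein-coding gene, KIF26A, a member of the kinesin family that lies 42690 bp away, rose too, by 0.60 (adjusted p = 2.49e-05).

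LINC02623 (chr10:42871521-42874060) measured 1.38, 0.973 and 0.997 CPM with siCTR and 2.38, 2.49 and 2.16 CPM with siMYCN, and 1.15, 0.637 and 0.602 CPM with siHAND2. It differed from siCTR by 0.66 in siMYCN and by -0.24 in siHAND2, and between the knockdowns by -0.91. Its siHAND2 mean was below 1 CPM and siMYCN held up its overall mean, so these are a description. LINC00877 (chr3:71943592-72279503) stood near 1 CPM in siCTR, at 1.01, 0.936 and 0.997, and at 2.13, 1.88 and 2.23 CPM with siMYCN, a difference of 0.64. Its siCTR mean was below the limit of 1 CPM, so this is a description. LINC00654 rose by 0.45 (adjusted p = 0.0120), and this call was lost without siMYCN replicate 1 (0.38, adjusted p = 0.0592).

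LINC02840 (chr6:152754903-152875991) is a more abundant case. It measured 39.8, 39.2 and 47.1 CPM with siCTR, 57.2, 61.6 and 63.7 with siMYCN and 40.1, 44.6 and 48.3 with siHAND2. All siMYCN libraries were above all others, and siCTR and siHAND2 overlapped. The log2 fold change was 0.53 in siMYCN (adjusted p = 4.84e-05) and 0.08 in siHAND2 (adjusted p = 0.471). It overlaps VIP, which encodes a neuropeptide and is read from the other strand. VIP measured 825, 848 and 899.8 CPM with siCTR and 1086, 1158 and 1199 CPM with siMYCN, far above LINC02840, and rose by 0.42 (adjusted p = 5.97e-06). Whether the authors counted reads by strand is not given in the sources used here, so VIP reads within the value of LINC02840 cannot be told apart. In siHAND2, VIP fell by 0.20 (adjusted p = 0.00488).

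LINC00205 (chr21:45288050-45297806) measured 32.3, 29.9 and 32.4 CPM with siCTR and 41.2, 39.1 and 44.2 CPM with siMYCN, with no overlap, and rose by 0.38 (adjusted p = 1.56e-04). Its start lies 152 bp from that of POFUT2, which encodes an O-fucosyltransferase and is read in the other direction. POFUT2 rose by 0.26 (adjusted p = 0.00852). LINC01578 (chr15:92819540-92899701), now CHASERR, is known to repress its neighbour, the chromatin remodeller gene CHD2, on the same chromosome. LINC01578 measured 66.5, 65.4 and 70.6 CPM with siCTR and 76.5, 79.7 and 82.2 with siMYCN, a rise of 0.23 (adjusted p = 0.00129). CHD2, which starts 488 bp beyond its end, rose as well, by 0.32 (adjusted p = 2.29e-05). LINC00667 rose by 0.27 (adjusted p = 3.13e-04). The rises that the rule for named genes did not pick were those of LINC00641, LINC00858, LINC00869, LINC01224, LINC01963 and LINC02249, between 0.19 and 0.37, together with LINC00863 and LINC01504, which are given with the promoters. Among the first 6, only LINC01963 kept its call under every alternative, and the libraries of LINC02249 overlapped those of siCTR.

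The 3 falls in siMYCN were LINC00839, LINC00665 and LINC01357. LINC00839 (chr10:42475480-42495337) measured 64.5, 67.0 and 68.8 CPM with siCTR, 48.1, 52.4 and 52.0 with siMYCN and 56.9, 60.5 and 58.7 with siHAND2. The groups did not overlap, and siMYCN was lowest. The log2 fold change in siMYCN was -0.39 (standard error 0.05, adjusted p = 1.69e-05). LINC00665 (chr19:36313067-36331770) went from 23.0, 23.3 and 21.7 to 19.2, 18.1 and 17.4 CPM, a log2 fold change of -0.30 (adjusted p = 0.00139). ZFP14, the protein-coding gene nearest to LINC00665, went the other way and rose by 0.23 (adjusted p = 0.00192). LINC01357 (chr1:112849821-112877871) went from 3.65, 4.28 and 4.74 to 3.22, 2.28 and 2.55 CPM (-0.51, adjusted p = 0.00311). Its nearest coding gene SLC16A1, a lactate transporter gene, changed by -0.29 (adjusted p = 1.24e-04).

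Promoter sequences, from 250 bases before to 50 after the gene's start, were available for 87 of the 111 genes from RefSeq (GRCh38.p14). For 79 of them (90.8%) the RefSeq start lay within 5000 bp of the start in the deposited table. The letters CACGTG, the same on both strands, occurred in 10 of 87 (11.5%), against 2030 of 27305 promoters in the whole RefSeq table (7.43%). Of the 18 LINC genes with a promoter that were called in siMYCN, 4 held CACGTG: LINC01801, LINC00863, LINC01504 and LINC00654, which were all higher in siMYCN. Of the 69 not called, 6 held it. In siHAND2, where MYCN was lower still, CACGTG was in 1 of 22 called genes and in 9 of 65 not called. LINC00863 and LINC01504 are named after their values were seen. A match describes letters in a window and not a bound site. The promoters of 3 of these genes follow, 5′ to 3′ on the gene's strand with CACGTG, and CATCTG or its reverse CAGATG, in capitals, to show where the letters lie, together with that of LINC00839, the gene lower in siMYCN with the smallest adjusted p, which holds neither.
LINC01801, chr19:34832820-34833119, minus strand: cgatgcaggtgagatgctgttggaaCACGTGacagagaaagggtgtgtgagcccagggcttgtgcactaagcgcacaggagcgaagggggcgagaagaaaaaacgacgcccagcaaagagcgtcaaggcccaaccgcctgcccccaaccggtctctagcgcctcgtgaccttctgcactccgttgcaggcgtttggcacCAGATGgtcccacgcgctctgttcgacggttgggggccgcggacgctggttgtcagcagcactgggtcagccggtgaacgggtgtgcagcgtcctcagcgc
LINC00863, chr10:87342486-87342785, plus strand: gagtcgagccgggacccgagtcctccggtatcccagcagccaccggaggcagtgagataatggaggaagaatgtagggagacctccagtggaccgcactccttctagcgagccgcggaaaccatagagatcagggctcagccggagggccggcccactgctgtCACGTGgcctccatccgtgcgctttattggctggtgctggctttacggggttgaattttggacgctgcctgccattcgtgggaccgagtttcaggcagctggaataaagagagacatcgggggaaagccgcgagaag
LINC01504, chr9:72305186-72305485, plus strand: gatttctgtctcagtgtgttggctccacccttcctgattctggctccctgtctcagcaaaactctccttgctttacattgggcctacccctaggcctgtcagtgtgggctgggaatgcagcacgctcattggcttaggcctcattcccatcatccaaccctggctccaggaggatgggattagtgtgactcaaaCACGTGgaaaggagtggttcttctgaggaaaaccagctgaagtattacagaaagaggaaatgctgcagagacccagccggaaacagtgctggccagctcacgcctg
LINC00839, chr10:42475241-42475540, plus strand: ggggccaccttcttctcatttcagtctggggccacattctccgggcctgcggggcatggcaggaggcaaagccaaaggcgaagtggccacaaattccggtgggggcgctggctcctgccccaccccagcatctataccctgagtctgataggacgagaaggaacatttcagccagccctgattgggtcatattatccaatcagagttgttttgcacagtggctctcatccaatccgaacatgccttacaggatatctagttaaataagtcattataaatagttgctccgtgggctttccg

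Counted from the gene's start, the CACGTG began at base -225 in LINC01801, -87 in LINC00863 and -56 in LINC01504. LINC01801 (chr19:34788527-34832869) measured 6.88, 5.54 and 5.504 CPM with siCTR, 8.94, 10.2 and 10.2 with siMYCN and 6.87, 7.81 and 8.68 with siHAND2. The siMYCN libraries were above all others, with a log2 fold change of 0.63 (adjusted p = 1.40e-04). LINC00863 went from 14.2, 14.0 and 13.0 to 17.5, 16.4 and 16.6 CPM (0.27, adjusted p = 0.00335). LINC01504 went from 2.02, 2.02 and 2.56 to 3.23, 2.77 and 3.43 CPM (0.37, adjusted p = 0.0148), and its call was lost without siCTR replicate 1 (0.33, adjusted p = 0.0589), siCTR replicate 2 (0.33, adjusted p = 0.0616) or siMYCN replicate 3 (0.32, adjusted p = 0.0684). Quantile normalization also lost the LINC01504 call (0.30, adjusted p = 0.0509). For LINC00654 the RefSeq start is not near the start in the deposited table, so its window may not be the promoter of the transcripts counted.

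Comparing siHAND2 with siCTR asks which of them change with the HAND2 siRNA, with the same 3 siCTR libraries as controls. MYCN was at 49.6% of its siCTR mean in siHAND2, so lower HAND2 and lower MYCN cannot be told apart here. Of the 111 LINC genes, 26 rose and 5 fell. Over all genes tested 18.1% were called higher, 11.8% lower and 29.9% in either direction, against 27.9% in either direction for the LINC genes. The 3 libraries lay above siCTR in 35 and below it in 10, against 25.8% and 16.6% of all genes, or 42.4% in either direction. Their median log2 fold change was 0.11, and that of all genes 0.04. After rescaling, falls outnumbered rises over all genes, with 12.5% higher and 17.2% lower by median ratios (median log2 fold change -0.01) and 13.7% and 14.9% by quantile normalization. The LINC genes had 25 rises and 8 falls by median ratios, and 19 and 11 by quantile normalization, with medians of 0.07 and 0.04. The share of called LINC genes that were higher was thus 83.9% with CPM as deposited, 75.8% by median ratios and 63.3% by quantile normalization. Among the 100 LINC genes whose mean reached 1 CPM in each group there were 22 rises and 5 falls. An absolute log2 fold change of 0.5 or more was reached by 8 genes and of 1 by none. Without siHAND2 replicate 2 the number of rises was 16.

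LINC02593 (chr1:916865-921016) measured 1.07, 0.599 and 1.42 CPM with siCTR, 1.81, 1.15 and 1.47 with siMYCN and 2.73, 3.46 and 2.34 with siHAND2. The siHAND2 libraries were above the others, and the other groups overlapped. Its log2 fold change was 0.93 (standard error 0.16, adjusted p = 3.26e-04). Its start lies 2912 bp from that of SAMD11, which encodes a protein with a sterile alpha motif domain and is read in the other direction. SAMD11 measured 8.62, 6.70 and 11.5 CPM with siCTR, 12.1, 9.80 and 12.2 with siMYCN and 27.3, 26.9 and 17.9 with siHAND2, a change of 1.33 in siHAND2 (adjusted p = 8.71e-06). In both genes siHAND2 was highest, and the SAMD11 library of siHAND2 replicate 3 was the lowest of its group.

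LINC00894 (chrX:149938613-150224580), which lies at EOLA2 on the X chromosome, measured 0.650, 0.815 and 0.514 CPM with siCTR and 1.42, 1.86 and 1.84 with siHAND2, a difference of 0.71. All its siCTR libraries lay below 1 CPM and it entered the set through the libraries in which it was higher, so this is a description. LINC02073 rose by 0.61 (adjusted p = 8.09e-05), with a ratio of means of 1.76. LINC01695 rose by 0.60 (adjusted p = 0.00304), from 1.28, 1.39 and 0.902 to 2.17, 2.55 and 2.20 CPM. These genes lie near 1 CPM in siCTR except LINC02073, so few reads stand behind each value.

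LINC02603, LINC00877 and LINC01772 also had siCTR means below 1 CPM, and their differences of 0.58, 0.52 and 0.50 are given as a description. LINC00342 went from 7.90, 10.3 and 12.03 to 12.2, 14.6 and 17.6 CPM. Its rise of 0.52 (adjusted p = 0.0141) was lost without siCTR replicate 1 (0.37, adjusted p = 0.0849) or siHAND2 replicate 3 (0.39, adjusted p = 0.0603). It was also lost with no intensity trend (adjusted p = 0.057). LINC00599, the microRNA host MIR124-1HG, was chosen after its values were seen. It measured 20.48, 19.99 and 24.8 CPM with siCTR and 25.5, 27.8 and 31.5 with siHAND2 and rose by 0.36 (adjusted p = 0.00760). LINC00641, LINC00858, LINC00963, LINC01089, LINC01128, LINC01560, LINC01670 and LINC02035, which the rule for named genes did not pick, rose by 0.28 to 0.44. Of these 8, LINC00641, LINC00858 and LINC01089 kept their calls under every alternative.

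The 5 falls in siHAND2 were LINC02607, LINC01948, LINC01116, LINC00200 and LINC00839. LINC02607 (chr1:95510059-95782342) measured 8.16, 7.599 and 6.26 CPM with siCTR, 8.82, 9.51 and 8.57 with siMYCN and 4.28, 4.14 and 5.21 with siHAND2. The siHAND2 libraries were the lowest and the siMYCN libraries the highest, with no overlap. The log2 fold change in siHAND2 was -0.59 (standard error 0.10, adjusted p = 3.60e-04), whereas the siMYCN value of 0.26 did not pass (adjusted p = 0.0549).

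LINC01116 (chr2:176629572-176637931) measured 31.7, 34.1 and 29.5 CPM with siCTR, 32.9, 30.3 and 32.5 with siMYCN and 22.4, 24.4 and 24.9 with siHAND2. It was lower in every siHAND2 library than in any other, by 0.40 on the log2 scale (adjusted p = 1.90e-04), and siCTR and siMYCN overlapped (0.01, adjusted p = 0.950). LINC01948 (chr5:56451627-56481946) went from 5.04, 4.75 and 4.70 to 2.79, 3.38 and 3.90 CPM (-0.43, adjusted p = 0.00550). LINC00200 (chr10:1159768-1289426) went from 8.74, 9.37 and 9.49 to 7.46, 6.57 and 7.65 CPM (-0.31, adjusted p = 0.0145). Its call was lost without siCTR replicate 2 (-0.30, adjusted p = 0.0523) or siHAND2 replicate 2 (-0.25, adjusted p = 0.0733). LINC00839 fell by 0.18 (adjusted p = 0.00997), from 66.8 ± 2.17 to 58.7 ± 1.79 CPM (SD, n = 3 libraries).

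CATCTG, or CAGATG on the other strand, occurred in 19 of the 87 LINC promoters (21.8%) and in 14.8% of all RefSeq promoters. Among the LINC genes called in siHAND2 it was in 7 of 22, and among those not called in 12 of 65. In siMYCN it was in 3 of 18 called and in 16 of 69 not called. No motif share was tested. Any CANNTG, which takes in both forms, was in 61 of 87 (70.1%), against 68.9% of all. Among the called genes that hold the letters, LINC01801, LINC01089, LINC02035, LINC00963 and LINC00894 were higher in siHAND2, and LINC02607 and LINC00200 lower. So the letters were found with rises as well as with falls. For LINC00963 the RefSeq start lies 11714 bp from the start in the deposited table, so its window may not be the promoter of the transcripts counted. The promoters of LINC02607 and LINC00200 are printed in the same way, with CAGATG in capitals, since LINC00200 holds them 3 times.
LINC02607, chr1:95509866-95510165, plus strand: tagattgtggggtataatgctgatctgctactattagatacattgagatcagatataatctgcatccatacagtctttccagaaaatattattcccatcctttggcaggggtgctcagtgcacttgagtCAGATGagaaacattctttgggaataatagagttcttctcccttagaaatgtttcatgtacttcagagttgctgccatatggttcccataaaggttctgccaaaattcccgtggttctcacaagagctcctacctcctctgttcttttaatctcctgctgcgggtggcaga
LINC00200, chr10:1159518-1159817, plus strand: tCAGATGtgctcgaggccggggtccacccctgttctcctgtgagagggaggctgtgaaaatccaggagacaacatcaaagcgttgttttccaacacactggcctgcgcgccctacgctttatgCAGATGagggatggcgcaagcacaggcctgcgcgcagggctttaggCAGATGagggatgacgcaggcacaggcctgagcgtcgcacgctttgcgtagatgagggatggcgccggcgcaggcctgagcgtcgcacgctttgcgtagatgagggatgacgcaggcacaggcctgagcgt

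**Figure D2:**
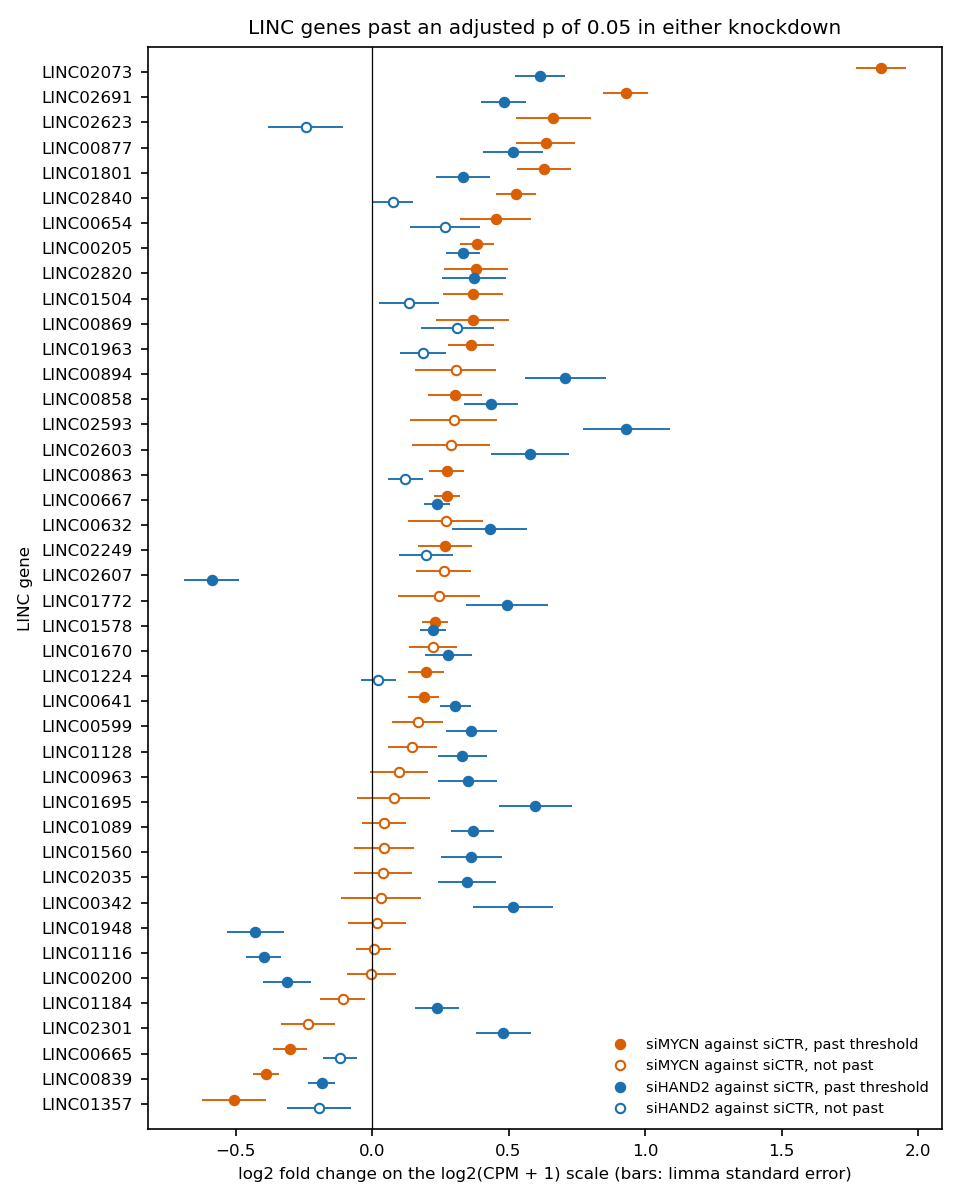
Log2 fold change of log2(CPM + 1) against siCTR for the 42 LINC genes past an adjusted p of 0.05 in siMYCN, in siHAND2 or in both; bars are the standard errors of limma, and open symbols did not pass in that comparison. LINC02073 lies farthest to the right, at 1.86 in siMYCN and 0.61 in siHAND2, and LINC02607 is the lowest in siHAND2, at -0.59. LINC00877, LINC02623, LINC00894, LINC02603 and LINC01772 had a mean below 1 CPM in at least 1 group, so their filled symbols are a description only.

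The direct comparison of siHAND2 with siMYCN tests whether the values of a gene differ between the knockdowns. Both MYCN and HAND2 were lower in siHAND2 than in siMYCN, so their parts in a difference cannot be told apart. Of the LINC genes, 11 were higher and 11 lower in siHAND2 than in siMYCN, 19.8% in all. Over all genes tested 11.4% were called higher, 15.5% lower and 26.9% in either direction. The libraries of the 2 groups did not overlap in 15 genes that were higher and 15 that were lower, against 17.1% and 21.6% of all genes, or 38.7% in either direction. Both medians lay near 0, at -0.004 for the LINC genes and -0.01 for all genes, and had no stable sign: they were 0.02 and 0.01 after quantile normalization. Of the 100 LINC genes whose mean reached 1 CPM in each group, 11 were higher and 10 lower. Without siMYCN replicate 1 the number higher was 7, and without siHAND2 replicate 2 or 3 it was 6. In all, 66 of the 111 genes passed the threshold in none of the 3 comparisons.

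The largest difference was that of LINC02073, at -1.25 (standard error 0.09, adjusted p = 2.01e-08). LINC02607 (-0.85, adjusted p = 8.32e-06) was also lower in siHAND2 than in siMYCN, as were LINC02840 (-0.45, adjusted p = 2.36e-04) and LINC02691 (-0.45, adjusted p = 6.57e-04). LINC01694, among the 10 most abundant, was not called against siCTR in either knockdown, at 0.08 and -0.09, but the direct difference of -0.17 passed (adjusted p = 0.00717).

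Higher in siHAND2 than in siMYCN were LINC02301 (0.72, adjusted p = 4.17e-05) and LINC02593 (0.63, adjusted p = 0.00720). LINC02301 (chr14:82642605-82746664) measured 3.94, 4.01 and 4.13 CPM with siCTR, 3.504, 3.37 and 2.95 with siMYCN and 5.23, 6.33 and 6.55 with siHAND2. The siMYCN libraries were the lowest and the siHAND2 libraries the highest, without overlap. Against siCTR it rose by 0.48 in siHAND2 (adjusted p = 0.00165), and its siMYCN value was -0.24 (adjusted p = 0.0768). LINC01695 was higher in siHAND2 by 0.52 (adjusted p = 0.00843), a call lost without siMYCN replicate 1 (0.41, adjusted p = 0.0523). LINC00342 was higher by 0.48 (adjusted p = 0.0217), a call lost with no intensity trend and without siMYCN replicate 1 or siHAND2 replicate 2 or 3. LINC01184 was higher by 0.35 (adjusted p = 0.00436), a call kept under every alternative. LINC00839 was higher by 0.20 (adjusted p = 0.00530).

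For genes that passed in both comparisons against siCTR, the values stand side by side, with the caution that both use the same control libraries. LINC00205 had 0.38 and 0.33 in siMYCN and siHAND2, LINC00667 0.27 and 0.24, and LINC01578 0.23 and 0.22. LINC01801 had 0.63 and 0.33, and its siHAND2 call was lost without siCTR replicate 2 (0.29, adjusted p = 0.0807) or 3 (0.29, adjusted p = 0.0669) and without siHAND2 replicate 2 (0.33, adjusted p = 0.053) or 3 (0.26, adjusted p = 0.071). That LINC01801 call was also lost with no filter (0.33, adjusted p = 0.0503) and by quantile normalization (0.27, adjusted p = 0.0555). LINC02820, at 1.16, 1.20 and 1.04 CPM with siCTR, had 0.38 and 0.37. Its siMYCN call was lost without siCTR replicate 3, siMYCN replicate 1 or siMYCN replicate 3 (0.35 in each, adjusted p = 0.0591 to 0.0657). Its siHAND2 call was lost without any single siCTR library or siHAND2 replicate 2 or 3 (0.32 to 0.39, adjusted p = 0.0527 to 0.103). Quantile normalization also lost the siHAND2 call (0.29, adjusted p = 0.068).

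Of 11 LINC symbols chosen by name from work on cancer or on the nervous system, 4 were among the 111 genes and 7 were not. The 7 were looked for under these symbols only, so their absence from the set does not show that the genes were not expressed. LINC00467, described in neuroblastoma cells as a transcript that MYCN represses, measured 3.82, 2.88 and 3.61 CPM with siCTR, 4.63, 3.87 and 4.21 with siMYCN and 4.21, 3.505 and 3.58 with siHAND2. All 3 siMYCN libraries lay above the siCTR libraries, but the difference of 0.24 (standard error 0.11) did not pass (adjusted p = 0.0940), nor did 0.11 in siHAND2 (adjusted p = 0.4999). LINC00632, the host of the circular RNA CDR1as, measured 4.86, 6.10 and 6.88 CPM with siCTR, 6.20, 6.83 and 9.18 with siMYCN and 7.86, 9.92 and 7.30 with siHAND2. It rose by 0.43 in siHAND2 (adjusted p = 0.0251), a call lost without siCTR replicate 1 (0.31, adjusted p = 0.129), siCTR replicate 2 (0.45, adjusted p = 0.0534) or siHAND2 replicate 2 (0.31, adjusted p = 0.134). The call was also lost by quantile normalization (0.37, adjusted p = 0.0643), with no filter (0.43, adjusted p = 0.0607) and with no intensity trend (0.43, adjusted p = 0.0668). The siMYCN value of LINC00632 was 0.27 (adjusted p = 0.138), and the circle itself was not measured apart from the gene. The other 2, LINC00839 and LINC00665, are the falls given above, and LINC00665 measured 19.7, 21.4 and 21.2 CPM with siHAND2, with a log2 fold change of -0.12 (adjusted p = 0.163).

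The number of calls moved with the level of the gene. In the lowest band, from 1 to 2 CPM, all calls of LINC genes against siCTR were rises, 5 in siMYCN and 7 in siHAND2. All tested genes in that band had 124 rises and 60 falls in siMYCN, and 130 and 68 in siHAND2. The LINC rises in this band include genes with a mean below 1 CPM in a group, which passed the limit through groups where they were higher. These are LINC00877 and LINC02623 in siMYCN, and LINC00877, LINC00894, LINC02603 and LINC01772 in siHAND2. The excess of rises in this band is therefore not independent of the limit on the mean, and the part of that limit was not tested. In siMYCN, 5 of the 38 LINC genes between 1 and 2 CPM were called (13.2%), 3 of 30 between 2 and 5, 5 of 25 between 5 and 20, and 9 of 18 at 20 CPM or more. The same bands of all tested genes gave 13.96%, 22.6%, 33.6% and 44.6%. In siHAND2, the LINC genes gave 7 of 38 (18.4%), 6 of 30, 11 of 25 and 7 of 18 (38.9%), and all genes 15.02%, 22.3%, 28.2% and 35.3%. The LINC genes therefore lay below all genes in the bands of 2 to 5 and 5 to 20 CPM in siMYCN and above them in the band of 5 to 20 CPM in siHAND2, with 25 LINC genes in that band; these differences between bands were not tested.

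**Figure D3:**
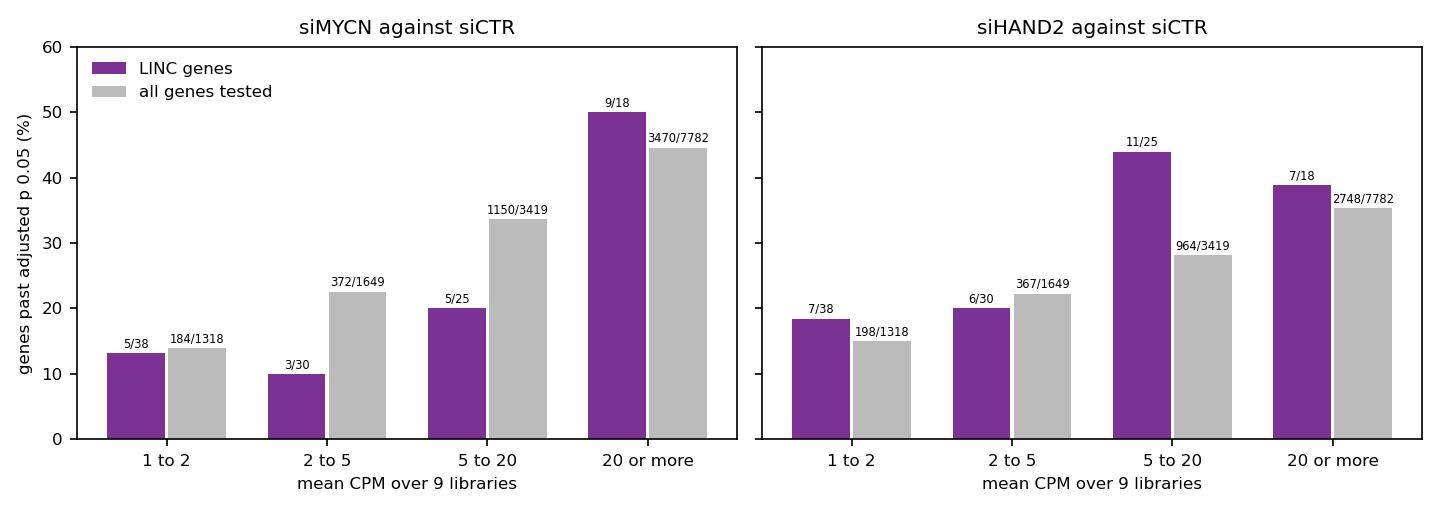
Percent of genes past an adjusted p of 0.05 by band of mean CPM, for the LINC genes (38, 30, 25 and 18 genes in the bands) and for all 14495 genes tested, in siMYCN and in siHAND2 against siCTR. In siMYCN the LINC genes are lower than all genes between 2 and 20 CPM, and at 20 CPM or more 9 of 18 are called against 44.6% of all genes.

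Many LINC genes share their place with other genes. Of the 111, 57 overlapped another gene of the table, 47 of them a gene on the other strand, so their values may hold reads of that gene if strand was not used. Relative to the nearest protein-coding gene, 20 overlapped it, 10 lay head to head with it (opposite strands, starts within 5000 bp) and 81 lay apart. Among the LINC genes called in siMYCN, 19 had a tested nearest coding gene, and 13 of these coding genes were called too, 10 in the same direction as the LINC gene. In siHAND2 the numbers were 27, 9 and 7. Over all genes, 35.9% were called in siMYCN and 29.9% in siHAND2. Of the calls in siMYCN, 68.3% over all genes and 86.4% of LINC genes were rises, and in siHAND2 60.6% and 83.9%.

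For the 10 head-to-head pairs, the log2 fold changes of the LINC gene and its neighbour had the same sign in 8 of 10 pairs in siMYCN and in 8 of 10 in siHAND2. In each knockdown 76 of the 111 LINC genes lay above 0, as did 9064 (siMYCN) and 8483 (siHAND2) of all 14495 genes tested. A pair can therefore share a sign without any link between its genes. Across these pairs Pearson's r was 0.84 in siMYCN and 0.87 in siHAND2 (Spearman's rho 0.92 and 0.59). Without the pair LINC02593 and SAMD11, r was 0.78 and 0.60 over 9 pairs (rho 0.90 and 0.43). For the 72 pairs that lay apart r was 0.07 and 0.23, and for the 17 overlapping pairs with a tested neighbour 0.32 and -0.13. These correlations run across genes that share the same 9 libraries, and are given as a description. Some pairs share a coding gene: SAMD11 is also the nearest to LINC01128 and LINC01409, which lie 64482 and 113863 bp from it. LINC01184, whose start lies 594 bp from that of the ion cotransporter gene SLC12A2, had a log2 fold change of 0.24 in siHAND2 (adjusted p = 0.0363), and SLC12A2 one of 0.06 (adjusted p = 0.45). In siMYCN the values were -0.11 for LINC01184 (adjusted p = 0.323) and -0.19 for SLC12A2 (adjusted p = 0.0115). In siHAND2 against siMYCN both were higher, LINC01184 by 0.35 (adjusted p = 0.00436) and SLC12A2 by 0.24 (adjusted p = 0.00245). The siHAND2 call of LINC01184 was lost without any single siCTR library or without siHAND2 replicate 1 or 2 (0.17 to 0.25, adjusted p = 0.0551 to 0.172). It was also lost with no filter (0.24, adjusted p = 0.0833), by median ratios (0.19, adjusted p = 0.101) and by quantile normalization (0.18, adjusted p = 0.0937).

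**Figure D4:**
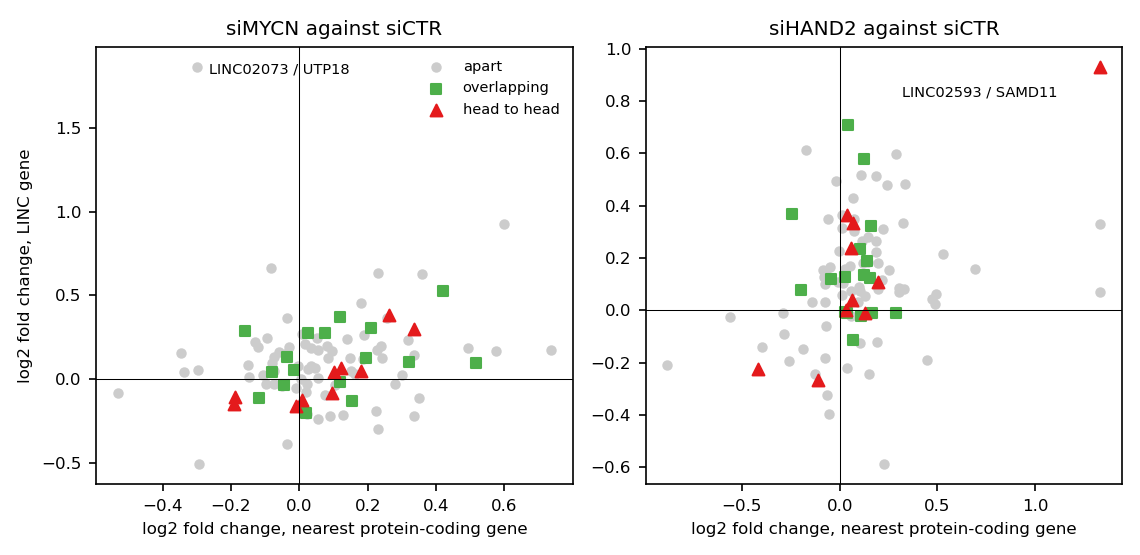
Log2 fold change against siCTR of each LINC gene (vertical) and of its nearest protein-coding gene (horizontal) for 99 LINC genes with a tested neighbour, marked by whether the pair lies apart, overlaps or is head to head, in siMYCN and in siHAND2. Pearson's r of the head-to-head pairs is 0.84 and 0.87, with LINC02593 and SAMD11 at the far upper right in siHAND2 (0.93 and 1.33).

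Near the targeted genes, LINC02269 lies 168.9 kb and LINC02268 561.5 kb from HAND2 on chromosome 4, and no LINC gene of the 111 lay within 5 Mb of MYCN. LINC02269, named after its values were seen, measured 2.69, 2.43 and 1.90 CPM with siCTR, 2.30, 3.11 and 2.502 with siMYCN and 1.18, 2.23 and 2.37 with siHAND2. The groups overlapped, and the siHAND2 value of -0.21 did not pass (adjusted p = 0.344). LINC02268 measured 67.4, 72.9 and 64.0 CPM with siCTR and 62.5, 67.9 and 70.6 with siHAND2, also with overlap (-0.02, adjusted p = 0.798).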

How the data were processed

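The authors deposited 1 table of CPM for 25084 genes, with a column for every library; each column sums to 1000002.4 to 1000002.6, with a constant of 0.0001 in every value. Reads were aligned with STAR 2.5.1 and handled in Partek, per the submitters' processing notes. The counting rule, its use of strand and the annotation are not given in the sources used here. Those notes name hg19, but the positions in the table fit GRCh38: of 18215 symbols found in the GRCh38 RefSeq table, 91.4% had a start within 5000 bp, against 5.62% of 18635 symbols in a GRCh37 annotation. Positions are therefore printed as GRCh38, counted from 1.

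Of the values up to 20 steps of the smallest step, 79.6% to 81.0% were whole multiples within 0.02, under the 95% needed to treat them as reads, so no count model was used. Depth from the step covers counting error only, since PCR copies are not independent molecules.

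All tests used log2(CPM + 1) with a pseudocount of 1 and kept genes that reached 1 CPM in 3 or more of the 9 libraries (14495 genes, all 111 LINC genes among them). A model with a mean for each group was fitted across the 9 libraries by limma 3.58.1 under R 4.3.3 (eBayes with an intensity trend), and p-values were adjusted by Benjamini-Hochberg over all genes tested in each of the 3 comparisons.

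Named genes are the 10 LINC genes with the highest mean; the 8 largest rises and falls against siCTR, and 5 in siHAND2 against siMYCN, among called genes whose groups do not overlap; up to 4 called in both knockdowns by the smaller change; 11 LINC symbols chosen by name; the 3 on each side of the limit; and nearest protein-coding genes. Genes outside this rule are marked in the text. The 111 genes and the lists were chosen with earlier results of these data known. Replicate numbers were taken as numbers only, since the labels do not say what a number shares. Libraries with the same number deviated together in most pairs but not in every pair. Alternatives were 2 other pseudocounts, 2 other filters, 2 rescalings, other fits, a replicate block, precision weights, a mean of at least 2 CPM and each library left out. A mean of at least 1 CPM in each group was added after seeing the data.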

Additional observations from a re-analysis of the deposited data

How the results depend on the processing

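No called LINC gene changed direction under any alternative. The median log2 fold change of the LINC genes in siHAND2 against siMYCN, -0.004, lay at 0 and took either sign, from -0.02 without siHAND2 replicate 3 to 0.02 without siHAND2 replicate 1. The median over all genes in siHAND2 against siCTR went from 0.04 to -0.01 with median-ratio rescaling. For the counts of LINC genes, a filter of 5 CPM left 46 of the 111 tested and gave 15 higher in siHAND2 and 6 higher in siHAND2 than in siMYCN, in both cases with fewer genes tested. With no filter 7 were higher in siHAND2 than in siMYCN. Median-ratio rescaling gave 8 lower in siHAND2 and quantile normalization 11, and the cause was not tested. With each library left out in turn, the rises in siMYCN numbered 12 to 22 and the falls 3 to 3, the rises in siHAND2 16 to 30 and the falls 4 to 6, and the genes higher in siHAND2 than in siMYCN 6 to 14 and lower 8 to 14. With the replicate number as a block there were 20 higher and 3 lower in siMYCN, 30 and 6 in siHAND2, and 16 and 13 in siHAND2 against siMYCN. Same-numbered libraries correlated between -0.04 and 0.305, and only the value of siMYCN replicate 2 with siHAND2 replicate 2 was negative. Libraries with different numbers correlated between -0.296 and 0.141. Over all genes the block gave 4014 higher and 1881 lower in siMYCN, against 3556 and 1653 without it. The labels do not say what a number shares, so the numbers are not taken as pairs, and a shared batch was not tested. Of the calls, 11 of 19 rises and 3 of 3 falls in siMYCN, 15 of 26 and 4 of 5 in siHAND2, and 5 of 11 and 8 of 11 in siHAND2 against siMYCN held under every alternative. Some of the genes that held have a group mean below 1 CPM and are given above as a description only. These are LINC00877 and LINC02623 in siMYCN, LINC00877, LINC00894 and LINC02603 in siHAND2, and LINC02623 in siHAND2 against siMYCN. Over 36 named LINC genes, 1927 of 2007 recomputed values stayed on their side of the threshold, 59 lost it and 21 gained it. Depth limits the 38 genes between 1 and 2 CPM most, where the replicate spread is near the estimated counting error.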

Other observations

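Other RNA genes that are named by class were counted in the same fit, without naming members. Of 23 tested small nucleolar RNA host genes (SNHG symbols), which carry small nucleolar RNAs in their introns, 1 rose and 14 fell in siMYCN, with a median log2 fold change of -0.26 (limma, adjusted p under 0.05), and 1 rose and 11 fell in siHAND2, with a median of -0.19. Over all genes tested 11.4% fell in siMYCN and 11.8% in siHAND2. For the LINC genes the medians were 0.08 and 0.11.

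Over all genes tested 24.5% rose and 11.4% fell in siMYCN, and 18.1% rose and 11.8% fell in siHAND2. Of 301 tested antisense genes (symbols ending in AS and a number), 30 rose and 18 fell in siMYCN and 54 rose and 14 fell in siHAND2. Of 40 divergent transcripts (symbols ending in DT), 4 rose and 2 fell in siMYCN and 1 rose and 1 fell in siHAND2. Of 24 microRNA host genes, 4 rose (16.7%) and none fell in siMYCN, and 7 rose and none fell in siHAND2 (29.2%). Of 1262 genes with clone-style names, 118 rose and 41 fell in siMYCN, and 160 rose and 39 fell in siHAND2. Medians of these 4 classes lay between 0.03 and 0.10. Differences between the classes were not tested.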
